A study of Mus musculus with 6 samples.

Results

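Heat shock proteins and the cochaperones that work with them were examined in isolated mouse hearts after cardioplegic arrest and reperfusion. The genes were taken by name from the table of protein-coding transcripts: every name starting with Hsp, Dnaj, Cct followed by a subunit number, Fkbp or Ahsa, the numbered Bag genes, and Cryab, Stip1 and Chordc1, with Hsp90b1 and Hspg2 left out. This gave 66 genes with 90 transcripts, of 8969 protein-coding genes in all. Of 108 RefSeq protein-coding genes whose symbols fit the same rule, the other 42 were not analysed here, among them Hspa1a, Dnajb1, Hspb1, Hspb6, Hspe1 and Bag3.

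RNA was sequenced from 3 I/R hearts and 3 Sham hearts of male mice, 1 library per heart, with no strain or age given in the labels. All 6 hearts had been isolated and kept beating by Langendorff perfusion, in which fluid is driven into the coronary vessels of an explanted heart. In the I/R group (ischaemia and reperfusion) the beat was halted with cardioplegia for 30 min before the heart was reperfused for 1 h. In the Sham group contraction was not stopped, so I/R and Sham hearts differ in arrest and reperfusion together. The labels call the hearts biological replicates. They do not say whether hearts of different groups were perfused on the same day. The p-values below measure only the spread between these hearts.

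Chaperones bind unfolded or newly made proteins and keep them from aggregating. Hsp70 proteins hold short unfolded stretches and release them with the use of ATP, J-domain proteins (the Hsp40 or Dnaj family) bring them their clients, nucleotide exchange factors such as the BAG and Hsp110 proteins reset them, and Hsp90 finishes the folding of signalling proteins with the help of cochaperones such as Stip1. Small heat shock proteins hold unfolding proteins without ATP and are abundant in heart and skeletal muscle, where they act at the sarcomere and its Z-disc. Many of these genes are switched on by heat shock factors, which bind repeated GAA and TTC units in promoters (the heat shock element) when misfolded protein builds up.

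Promoter stretches are shown first because they carry the sequence that heat shock factors recognise, and because they show which listed genes hold it. Of the 66 genes, 52 had a promoter in the RefSeq table of GRCm38.p6 (250 bases before to 50 bases after the annotated start). An element of 3 adjoining units, written GAANNTTCNNGAA or TTCNNGAANNTTC and searched on both strands, was found in 4 of these 52 promoters (7.69%), against 179 of 27025 promoters of all genes (0.662%). The 4 genes were Chordc1, Dnajb6, Hspd1 and Hsph1. The shorter element of 2 units, GAANNTTC or TTCNNGAA, which lies within every longer one, was found in 16 of 52 promoters (30.8%), against 17% of all promoters. The stretches below are 30 bases long and run 5′ to 3′ on the strand of the gene, with the matched units and the bases between them in capitals. Hspb8 is shown as a gene with only the shorter element, because it had the smallest unadjusted p among the genes that were higher in I/R hearts.
Chordc1, chr9:18292260-18292289, plus strand: ccgGAACGTTCGGGAAAATTCCTGAAgcag
Dnajb6, chr5:29735844-29735873, plus strand: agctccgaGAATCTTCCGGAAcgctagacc
Hspd1, chr1:55088053-55088082, minus strand: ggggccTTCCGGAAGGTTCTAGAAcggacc
Hsph1, chr5:149636279-149636308, minus strand: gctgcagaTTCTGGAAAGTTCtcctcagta
Hspb8, chr5:116422844-116422873, minus strand: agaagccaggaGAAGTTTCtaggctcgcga
The match in Chordc1 was the longest of these, 23 bases of overlapping units that span the annotated start. A match is a match of letters and was not tested as a binding site, and a promoter with no match lacks only these letters in this window. Of the 4 genes with the longer element, Hspd1 and Hsph1 were below the level at which genes were tested, and Chordc1 and Dnajb6 had overlapping groups (values below).

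Abundance was given by the authors as FPKM, fragments scaled to the length of the transcript and the size of the library. A gene's level is the sum over its listed transcripts. Library totals for protein-coding transcripts were 7690040 to 8896834 reads in I/R hearts and 7233171 to 9902397 reads in Sham hearts. The transcripts in the table held 36.8% to 39.9% of these totals, and the part of each gene's reads that its listed transcripts hold is not known. The lncRNAs were scaled to totals of their own, 2025331 to 2792592 reads over the 6 hearts. FPKM of lncRNAs and of protein-coding genes are therefore not on the same scale. Of the 66 genes, 49 reached a mean of 0.5 FPKM and were tested, and 17 (25.8%) did not, against 43.8% of all protein-coding genes. Of 13 markers of ventricular heart muscle 12 were tested, 4 with a change above 0 and 8 below (median -0.27, as log2(FPKM + 1), I/R minus Sham). Their summed level was 9699 to 10563 FPKM in I/R hearts and 9734 to 10344 FPKM in Sham hearts. Fabp3, the fatty acid binding protein of cardiomyocytes, held most of it, with 9090 to 9977 FPKM in I/R hearts and 8967 to 9649 FPKM in Sham hearts. The others were far lower, down to Tnni3, cardiac troponin I, with means of 0.733 FPKM in I/R hearts and 1.59 FPKM in Sham hearts. Pln, which encodes phospholamban, had a change of -0.77 ± 0.17 (SE; unadjusted p = 0.00297, Benjamini-Hochberg adjusted p = 0.386 by limma), and Tnnt2, cardiac troponin T, one of -0.47 ± 0.13 (unadjusted p = 0.0103, adjusted p = 0.457 by limma). In both, every I/R heart lay below every Sham heart, and the part of these markers in the results was not tested.

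The mean levels of the 66 genes ran from 0.0167 to 2051 FPKM, and a small heat shock protein led them. Hspb7, which protects the sarcomere of cardiac and skeletal muscle, had the highest mean over the 6 hearts. It was followed by Hspb8 at 484 FPKM, by Hspa9, the Hsp70 of mitochondria, at 466 FPKM, and by Dnaja2, a cytosolic J-domain protein, at 241 FPKM. Hsp90ab1, the constitutive cytosolic Hsp90, had a mean of 229 FPKM, Fkbp9, a prolyl isomerase of the endoplasmic reticulum, 137 FPKM, and Stip1, the adaptor that links Hsp70 to Hsp90, 113 FPKM. Dnaja4, Dnajb9, Hspa4, Bag2, Hspa12b and Dnajc10 made up the rest of the 13 genes with at least 20 FPKM.

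**Figure D1:**
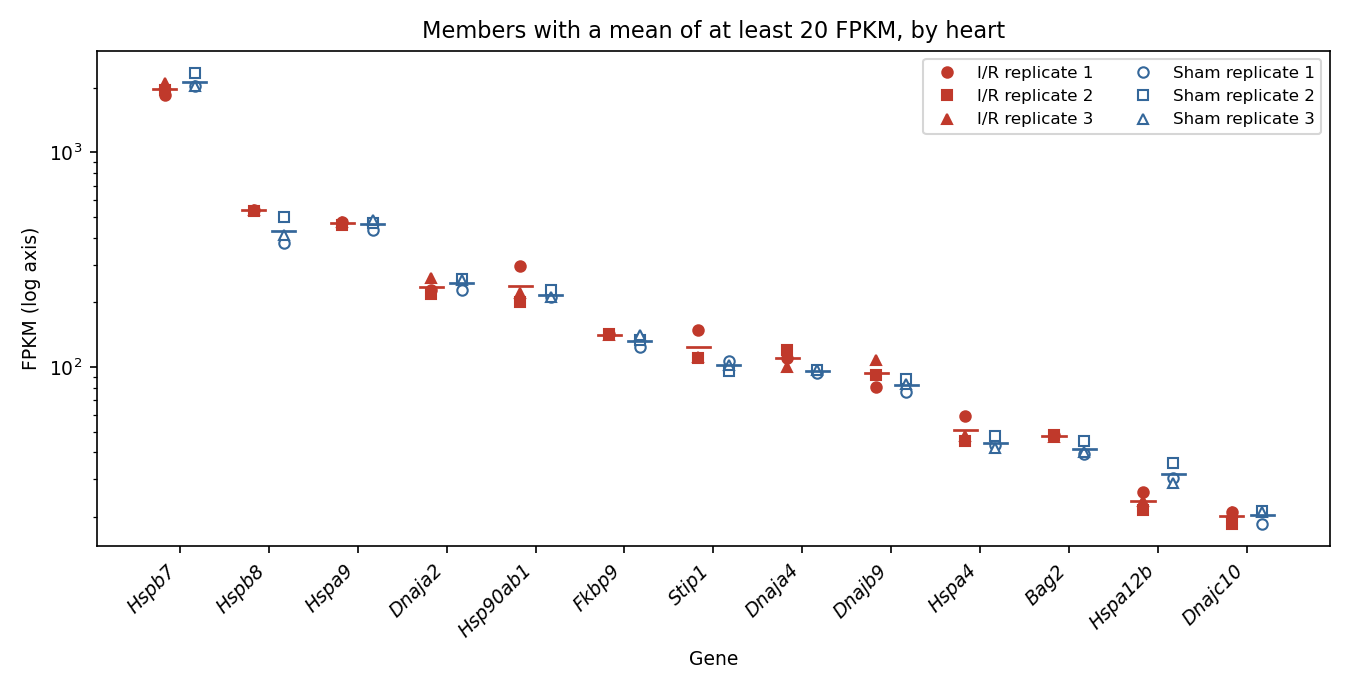
FPKM in every heart (log axis) for the 13 genes whose mean was 20 FPKM or more, with I/R hearts and Sham hearts as separate points and short lines for the group means. Hspb7 runs from 1842 to 2335 FPKM, and the I/R points of Hspa12b lie below its Sham points.

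Several chaperones that are textbook constitutive or muscle genes were at or near the floor in this table. Hspa8, the constitutive cytosolic Hsp70, had 0.109, 0.563 and 0.320 FPKM in I/R hearts and 0.0422, 0.0433 and 0.231 FPKM in Sham hearts, which rest on 20 and 6 reads over the 3 hearts of each group. Cryab, the small heat shock protein alphaB-crystallin of muscle and lens, had 0.931, 0.403 and 0.443 FPKM in I/R hearts and 0.271, 0.0928 and 0.743 FPKM in Sham hearts, from 15 and 10 reads. The groups of both genes overlapped, and neither reached the level for a test. Hspd1, the mitochondrial chaperonin, had 7 reads over the I/R hearts and 9 over the Sham hearts.

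Hspa1b and Hsph1, a pair of heat-inducible genes, were also below the level for a test. Hspa1b, the stress-inducible Hsp70, had 0.139, 0.0401 and 0 FPKM in I/R hearts and 0, 0 and 0.0493 FPKM in Sham hearts, 4 reads against 1. Its near-identical neighbour Hspa1a was not analysed here, and the sources used here do not say how reads shared by the pair were assigned. Hsph1, an inducible Hsp110, had 0.137, 0.493 and 0.311 FPKM in I/R hearts and 0.0797, 0.319 and 0.132 FPKM in Sham hearts, from 27 and 16 reads. Groups overlapped for both, so at this depth no difference was detectable for either.

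The level of a gene in the table went along with how many mRNAs RefSeq annotates for it. The 29 genes with 1 annotated mRNA had a median of 7.06 FPKM, the 25 genes with 2 to 3 had a median of 1.99 FPKM, and the 12 genes with 4 or more had a median of 1.01 FPKM. Over all protein-coding genes the medians were 1.4, 0.831 and 0.485 FPKM in the same order. Of the 13 genes with at least 20 FPKM, 10 had 1 annotated mRNA. Cryab has 6 in this annotation, Hsph1 has 4 and Hspa8 has 2. The part that the number of transcripts has in these levels was not tested.

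**Figure D2:**
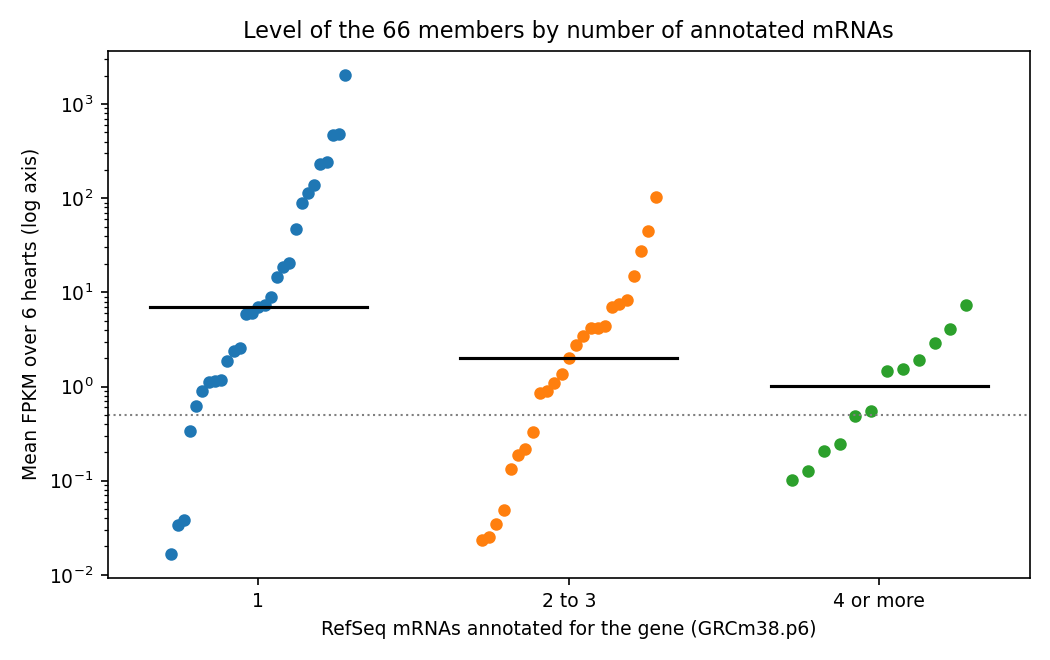
Mean FPKM over 6 hearts (log axis) of each of the 66 genes by the number of RefSeq mRNAs annotated for it, with a line at each median and a dotted line at 0.5 FPKM, the level for a test. The medians are 7.06, 1.99 and 1.01 FPKM for 1, for 2 to 3 and for 4 or more mRNAs.

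The small heat shock proteins summed to 2406, 2512 and 2650 FPKM in I/R hearts and 2429, 2853 and 2473 FPKM in Sham hearts, with Hspb7 holding 80.3% of the sum. The Hsp70 family summed to 609.1, 566.8 and 589.9 FPKM in I/R hearts and 549.1, 592.3 and 587.6 FPKM in Sham hearts, with Hspa9 holding 80.0%. The ranges of the groups overlapped in both families. The J-domain proteins, whose groups overlapped too, summed to 488.1, 492.1 and 535.7 FPKM in I/R hearts and 463.4, 506.0 and 504.2 FPKM in Sham hearts. The BAG genes summed to 59.2, 57.6 and 57.9 FPKM in I/R hearts and 49.6, 55.6 and 50.4 FPKM in Sham hearts, and here every I/R heart lay above every Sham heart, with Bag2 holding 81.2% of the sum. The Hsp90 pair summed to 299.1, 204.1 and 225.4 FPKM in I/R hearts and 213.4, 231.9 and 212.7 FPKM in Sham hearts, which overlapped. The other cochaperones summed to 161.0, 124.3 and 117.8 FPKM in I/R hearts and 117.6, 105.7 and 110.1 FPKM in Sham hearts, with Stip1 holding 91.7%. Every I/R heart lay above every Sham heart there as well, though the nearest pair of hearts had almost the same sum.

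Comparing the I/R hearts with the Sham hearts asks whether RNA of the chaperone system differed 1 h after the arrest ended. Changes are given on the log2(FPKM + 1) scale, I/R minus Sham, which understates the change of genes with low FPKM. They were tested with limma across all 12114 genes with at least 0.5 FPKM. At a Benjamini-Hochberg adjusted p under 0.05, 0 of the 49 genes were called, as were 0 of the 12114 genes (0%). With limma voom on the recovered reads 0 of the 49 genes were called as well. At an unadjusted p under 0.05 by limma, 1 of the 49 genes was higher in I/R hearts (Hspb8), against 4.23% of all genes and 3.43% of protein-coding genes. By the same count 3 of the 49 were lower (Dnajb4, Dnajc19 and Hspa12b), against 4.21% of all genes and 1.67% of protein-coding genes. Both counts are small, and the adjusted p of each of the 4 genes by limma was 0.45 or more.

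Counted by the hearts themselves, 9 of the 49 genes (18.4%) had every I/R heart above every Sham heart, against 7.1% of all genes and 8.83% of protein-coding genes. These were Bag2, Dnaja4, Dnajb3, Dnajc21, Fkbp9, Hsp90aa1, Hspa1l, Hspb8 and Stip1. Only 3 of the 49 (6.12%) had every I/R heart below every Sham heart, the same 3 named above, against 6.57% of all genes and 5.12% of protein-coding genes. The median change of the 49 genes was 0.03, beside 0.02 for protein-coding genes and -0.0022 for all genes tested. Among the 25 genes with at least 5 FPKM the median was 0.13 and 18 were above 0 (72%), beside 0.05 and 63.3% for the 2119 protein-coding genes of that level. Among the 24 tested genes under 5 FPKM the median was -0.07 and 9 were above 0 (37.5%). The 2922 protein-coding genes tested at that level had a median of -0.0072, and 48.7% were above 0.

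**Figure D3:**
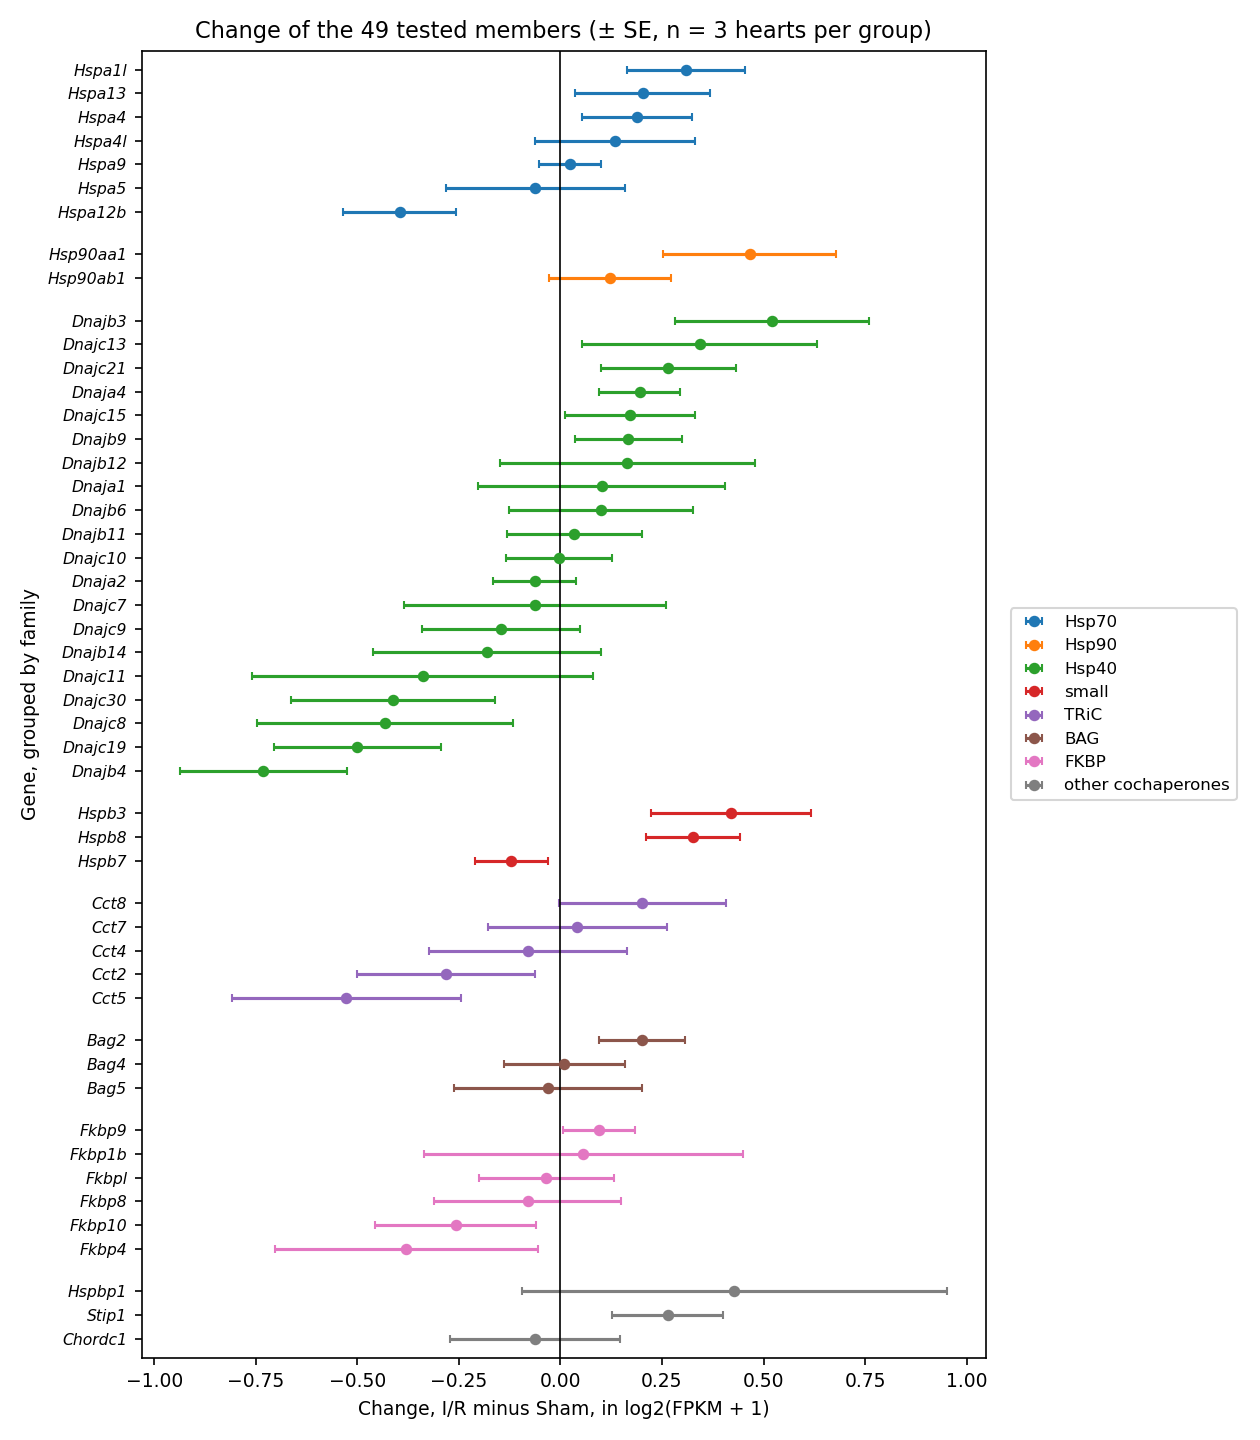
Change of each of the 49 tested genes, I/R minus Sham in log2(FPKM + 1), with bars of 1 SE (n = 3 hearts per group), ordered within families. Changes run from -0.73 for Dnajb4 to 0.52 for Dnajb3, and 27 of 49 lie above 0 (49.7% of all genes and 54.9% of protein-coding genes did).

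Of the small heat shock proteins, the most abundant gene and the next one differed in direction. Hspb7 had 1842, 1952 and 2097 FPKM in I/R hearts and 2032, 2335 and 2044 FPKM in Sham hearts, a change of -0.12 ± 0.09 (SE, 95% interval -0.33 to 0.09). Its groups overlapped, since I/R replicate 3 lay above Sham replicates 1 and 3. Hspb8, a small heat shock protein that works with Bag3 to send damaged sarcomere proteins to autophagy, had 540.9, 533.9 and 536.4 FPKM in I/R hearts and 377.4, 502.5 and 413.8 FPKM in Sham hearts. The 3 I/R hearts lay close together above all Sham hearts, and Sham replicate 2 came nearest to them.

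The means of Hspb8 were 537.1 ± 3.56 FPKM in I/R hearts and 431.2 ± 64.3 FPKM in Sham hearts (SD, n = 3 each), a change of 0.33 ± 0.11 (SE, unadjusted p = 0.0255 and Benjamini-Hochberg adjusted p = 0.515 by limma). The gene lies on the minus strand at chr5:116408491-116422864 in the table. Its unadjusted p by limma was 0.0557 to 0.0785 when any of the 3 I/R hearts or Sham replicate 1 or 3 was left out, and 0.0032 without Sham replicate 2. Hspb3, a muscle partner of Hspb2, had 22.5, 25.2 and 16.7 FPKM in I/R hearts and 18.5, 14.7 and 13.8 FPKM in Sham hearts. Its groups overlapped at a single pair, I/R replicate 3 and Sham replicate 1, and the change was 0.42 ± 0.20 (unadjusted p = 0.0705 by limma). Cryab is the only other small heat shock protein in the table, and Hspb1, Hspb2 and Hspb6 were not analysed here.

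In the Hsp70 family 7 of the 10 listed genes were tested, and 5 had values above 0 and 2 below. Hspa9 had 475.9, 458.5 and 474.0 FPKM in I/R hearts and 436.6, 467.9 and 482.0 FPKM in Sham hearts. The groups overlapped fully, and the change of 0.02 ± 0.08 had a 95% interval of -0.16 to 0.20. Hspa5, the Hsp70 of the endoplasmic reticulum and a target of its stress response, had 3.15, 5.14 and 4.66 FPKM in I/R hearts and 4.18, 5.25 and 4.07 FPKM in Sham hearts. The lowest and the second highest value both came from I/R hearts, and the change was -0.06 ± 0.22 with an interval of -0.59 to 0.46. Hspa13, a microsomal Hsp70, had a change of 0.20 ± 0.17 with overlapping groups.

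Hspa1l, the Hsp70 encoded beside Hspa1a and Hspa1b and best known from the testis, had 16.6, 15.8 and 15.7 FPKM in I/R hearts and 14.4, 12.7 and 11.2 FPKM in Sham hearts. All 3 I/R hearts lay above the Sham hearts (0.31 ± 0.14, unadjusted p = 0.071 by limma). The lncRNA Gm10501 overlaps it on the opposite strand, with 67.4, 64.7 and 58.2 FPKM in I/R hearts and 61.2, 55.2 and 52.5 FPKM in Sham hearts. These FPKM are scaled to the lncRNA total and are not on the scale of Hspa1l. The sources used here do not say whether counting used the strand, so reads of the pair cannot be told apart.

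Hspa12b, a distant Hsp70 relative known from endothelial cells, was the Hsp70 relative with every I/R heart at the lower end. It had 26.2, 21.7 and 23.8 FPKM in I/R hearts and 30.4, 35.9 and 29.0 FPKM in Sham hearts. No I/R heart reached the lowest Sham heart, with means of 23.9 ± 2.27 FPKM in I/R hearts and 31.8 ± 3.65 FPKM in Sham hearts (SD, n = 3 each). The change was -0.40 ± 0.14 (unadjusted p = 0.0252, Benjamini-Hochberg adjusted p = 0.513 by limma), and limma voom on the recovered reads gave -0.27 with an unadjusted p of 0.065. Without I/R replicate 2, I/R replicate 3 or Sham replicate 2 the unadjusted p by limma was 0.0583 to 0.0884.

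Endothelial markers are given beside it, because fewer cells of a type and less RNA per cell cannot be told apart in bulk hearts. Of 8 endothelial markers 4 were in the table and tested. Their summed level was 117.3 to 147.4 FPKM in I/R hearts and 97.9 to 126.8 FPKM in Sham hearts, and Kdr, the main VEGF receptor, held most of it. Kdr had a change of 0.33 ± 0.15 with overlapping groups, and Tie1, an endothelial receptor, had 1.79, 1.14 and 1.12 FPKM in I/R hearts and 2.73, 2.30 and 2.68 FPKM in Sham hearts. For Tie1 every I/R heart lay below every Sham heart (change of -0.61 ± 0.21, unadjusted p = 0.0207, adjusted p = 0.501 by limma). Fabp4 and Emcn had changes of 0.12 ± 0.23 and -0.04 ± 0.26 with overlapping groups, so that 2 of the 4 markers lay above 0 and 2 below. The part of endothelial cells in the Hspa12b values was not tested. None of the 4 was at 0, and the other markers of the list were not analysed here.

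The 2 listed transcripts of Hspa12b differed. The longer transcript ENSMUST00000099349, of 3413 bases, had 19.2, 15.4 and 17.7 FPKM in I/R hearts and 20.1, 23.4 and 17.1 FPKM in Sham hearts, with overlapping groups and a change of -0.20 ± 0.16. The short transcript ENSMUST00000100763, 628 bases long, had 7.04, 6.26 and 6.10 FPKM in I/R hearts and 10.3, 12.5 and 11.9 FPKM in Sham hearts. Every I/R heart lay well below every Sham heart for the short transcript (-0.75 ± 0.16, unadjusted p = 0.00215 and Benjamini-Hochberg adjusted p = 0.385 by limma over all transcripts), which rests on 99 reads in I/R hearts and 194 in Sham hearts.

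Within the span of Hspa12b on the same strand, at chr2:131133497-131134215, the table lists the predicted gene Gm11037, chosen here for its position after its values were seen. It had 36.8, 33.7 and 48.97 FPKM in I/R hearts and 79.1, 95.1 and 71.4 FPKM in Sham hearts, from 58 and 133 reads. These are the fewest reads that fit its FPKM, so the true numbers may be larger. I/R hearts lay below all Sham hearts by a wide gap (-1.03 ± 0.18, unadjusted p = 0.000686, Benjamini-Hochberg adjusted p = 0.385 by limma). Reads of 2 genes that overlap on 1 strand cannot be told apart here.

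**Figure D4:**
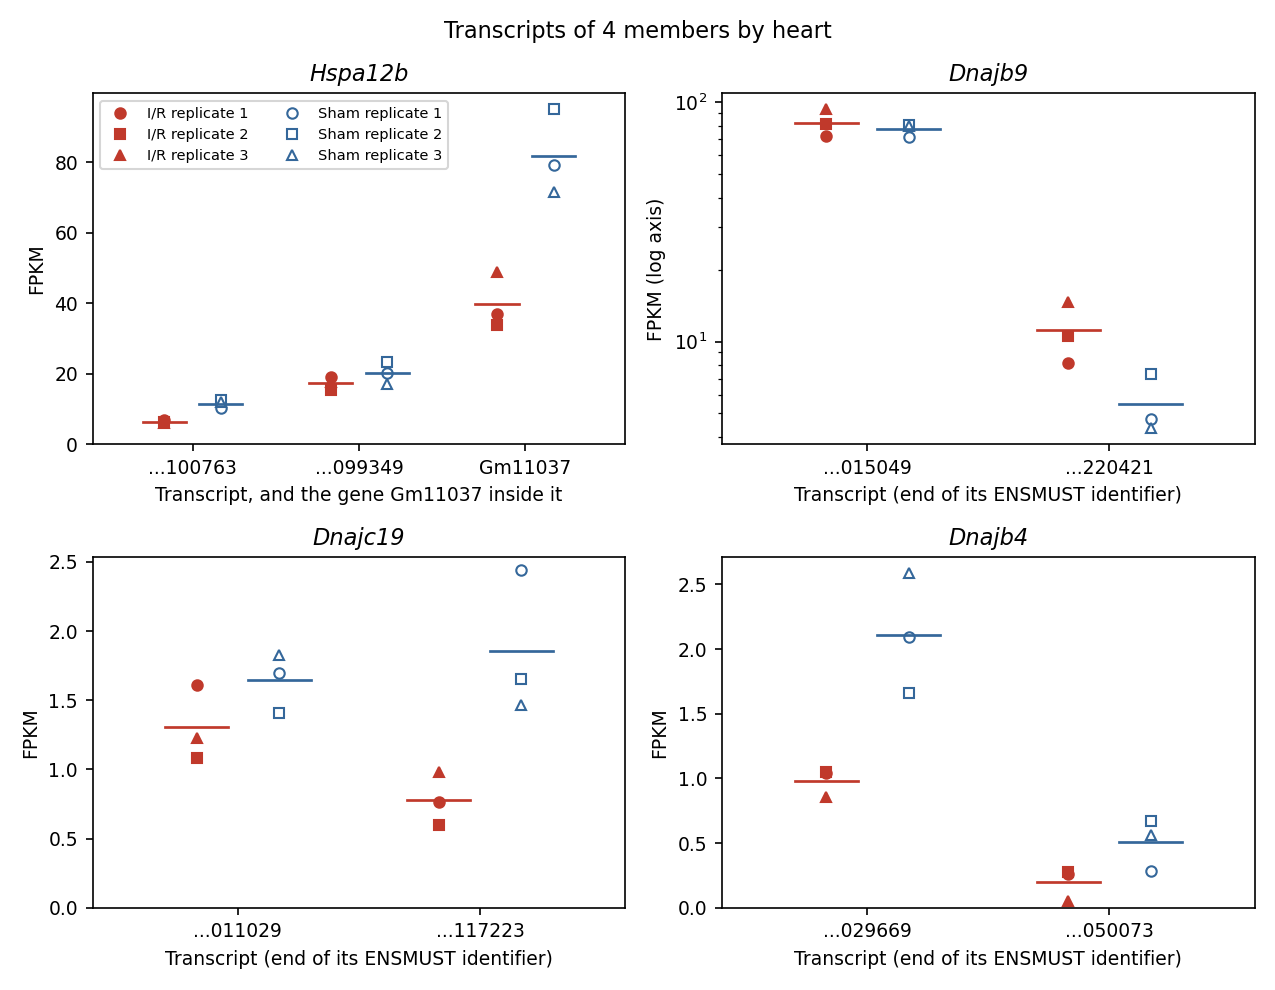
FPKM per heart of the main listed transcripts of Hspa12b (with Gm11037 beside them), Dnajb9 (log axis), Dnajc19 and Dnajb4, with I/R hearts left of Sham hearts and lines at the group means. The short Hspa12b transcript runs from 6.10 to 7.04 FPKM in I/R hearts and from 10.3 to 12.5 FPKM in Sham hearts, and the main Dnajb9 transcript overlaps between the groups.

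Of the cytosolic Hsp90 machinery, Hsp90ab1 and Stip1 were highest in the same I/R heart. Hsp90ab1 had 296.5, 201.1 and 221.8 FPKM in I/R hearts and 211.3, 229.6 and 211.2 FPKM in Sham hearts. I/R replicate 1 was far above every other heart while I/R replicate 2 was the lowest of the 6, and the change of 0.12 ± 0.15 became -0.04 without I/R replicate 1. Stip1 had 148.1, 110.6 and 111.5 FPKM in I/R hearts and 106.6, 95.8 and 102.7 FPKM in Sham hearts. All I/R hearts lay above the Sham hearts, again with replicate 1 on top, and the change was 0.26 ± 0.14 (unadjusted p = 0.095 by limma), or 0.13 without I/R replicate 1.

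The same heart was highest for the Hsp110 exchange factors Hspa4 and Hspa4l. Hspa4 had 59.2, 45.3 and 47.7 FPKM in I/R hearts and 43.1, 47.6 and 41.8 FPKM in Sham hearts, a change of 0.19 ± 0.14, or 0.08 without I/R replicate 1. Hspa4l had 19.3, 12.4 and 16.0 FPKM in I/R hearts and 14.5, 16.1 and 12.3 FPKM in Sham hearts, a change of 0.13 ± 0.20, or -0.01 without that heart. Relative to the Sham mean, I/R replicate 1 stood at 136%, 146%, 134% and 135% for Hsp90ab1, Stip1, Hspa4 and Hspa4l. I/R replicate 2 stood at 92.5%, 109%, 103% and 86.9% for the same genes, so that the I/R hearts did not move together.

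Over the 25 genes with at least 5 FPKM, I/R replicate 1 was the highest heart for 11 (44%), against 34.1% of the 2119 protein-coding genes of that level. Sham replicate 1 was the lowest heart for 10 of the 25 (40%), against 24.96% of those genes. These shares describe the hearts, and their part in the changes above was not tested beyond the values without that heart.

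**Figure D5:**
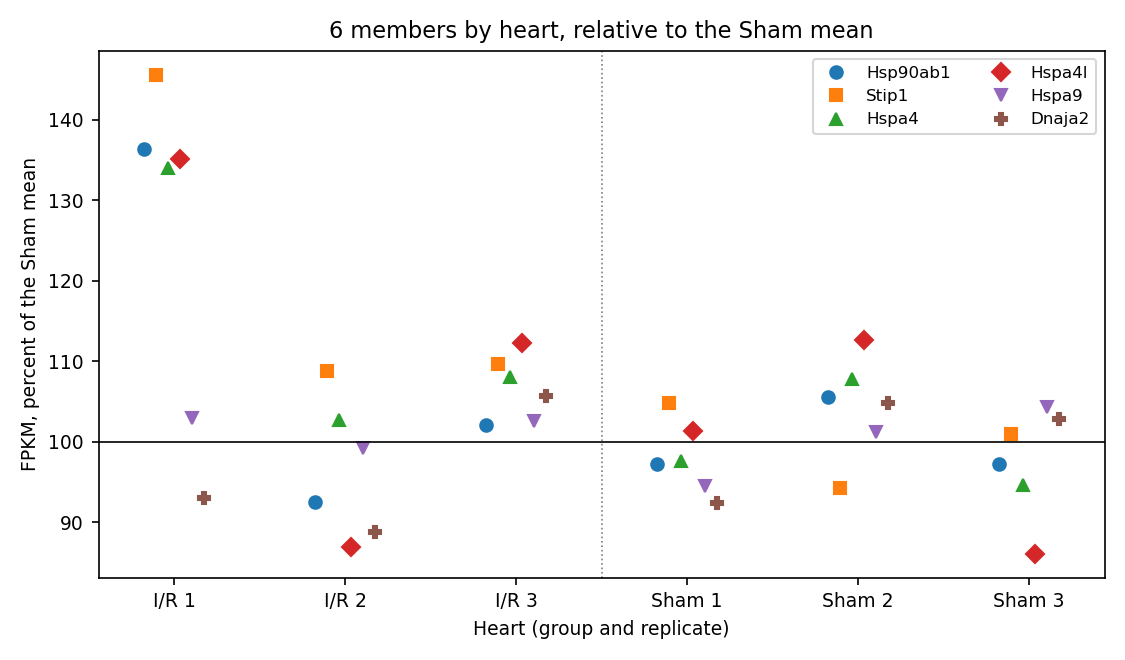
Level of Hsp90ab1, Stip1, Hspa4, Hspa4l, Hspa9 and Dnaja2 in each heart as a percentage of the Sham mean, I/R replicates left of Sham replicates. I/R replicate 1 is the highest heart for Hsp90ab1, Stip1, Hspa4 and Hspa4l at 134% to 146%, whereas Hspa9 stays between 94.5% and 104% in all 6 hearts.

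Hsp90aa1, the stress-inducible cytosolic Hsp90, was listed far below Hsp90ab1. It had 2.66, 3.09 and 3.65 FPKM in I/R hearts and 2.11, 2.39 and 1.502 FPKM in Sham hearts. All I/R hearts lay above all Sham hearts, and I/R replicate 1 was here the lowest of its group. The means were 3.13 ± 0.495 FPKM in I/R hearts and 2.0 ± 0.454 FPKM in Sham hearts (SD, n = 3 each), from 181 and 139 reads. The change was 0.47 ± 0.21 with an interval of -0.04 to 0.97 (unadjusted p = 0.0659 and Benjamini-Hochberg adjusted p = 0.61 by limma). With limma voom on the recovered reads it was 0.51 with an unadjusted p of 0.153. Neither of its 2 listed transcripts separated the groups. ENSMUST00000094361 had 1.31, 1.92 and 3.11 FPKM in I/R hearts and 1.48, 1.96 and 0.927 FPKM in Sham hearts (0.32 ± 0.29). ENSMUST00000149189, 481 bases long, rests on 12 reads in I/R hearts and 7 in Sham hearts. Chordc1, an Hsp90 cochaperone with the longest heat shock element shown above, had a change of -0.06 ± 0.21 with overlapping groups.

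Of the 28 listed J-domain genes 20 were tested, with 10 above and 10 below 0 and a median of 0.02. Dnaja2 had 229.3, 218.8 and 260.5 FPKM in I/R hearts and 227.7, 258.5 and 253.3 FPKM in Sham hearts, with overlapping groups and a change of -0.06 ± 0.10. Dnaja4, a cytosolic J-domain partner of Hsp70, had 110.6, 119.7 and 99.97 FPKM in I/R hearts and 93.7, 96.4 and 97.2 FPKM in Sham hearts. Its I/R hearts lay all above the Sham hearts, with a change of 0.19 ± 0.10 (unadjusted p = 0.094 by limma). Dnajc10, a disulfide reductase of the endoplasmic reticulum, had 21.1, 18.6 and 21.1 FPKM in I/R hearts and 18.6, 21.4 and 21.1 FPKM in Sham hearts, so that the groups could not be told apart.

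Dnajb9, the J-domain protein of the endoplasmic reticulum that represses the stress sensor Ire1, had 80.8, 91.5 and 108.2 FPKM in I/R hearts and 76.7, 87.6 and 83.7 FPKM in Sham hearts. Groups overlapped because I/R replicate 1 was lower than the upper Sham hearts (0.17 ± 0.13). Its main transcript, ENSMUST00000015049, held most of this level and had a change of 0.09 ± 0.12. A second transcript of 383 bases, ENSMUST00000220421, had 8.15, 10.6 and 14.7 FPKM in I/R hearts and 4.75, 7.31 and 4.33 FPKM in Sham hearts, from 104 and 57 reads. All I/R hearts lay above the Sham hearts for this short transcript (0.90 ± 0.27, unadjusted p = 0.0129, Benjamini-Hochberg adjusted p = 0.46 by limma).

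Besides Hspa12b, the genes lower in I/R hearts at an unadjusted p under 0.05 by limma were the J-domain genes Dnajb4 and Dnajc19, both of low abundance. Dnajb4, a cytosolic J-domain protein whose loss causes a myopathy in humans, had 1.31, 1.32 and 0.905 FPKM in I/R hearts and 2.38, 2.34 and 3.15 FPKM in Sham hearts. Every I/R heart lay below every Sham heart, and the 48 reads of the I/R hearts compare with 116 in the Sham hearts. The change was -0.73 ± 0.21 (unadjusted p = 0.00942, Benjamini-Hochberg adjusted p = 0.45 by limma), the smallest unadjusted p of the 49 genes, and it stayed under 0.05 with any 1 heart left out. Of its 2 transcripts, both had all I/R hearts below the Sham hearts, ENSMUST00000029669 with a change of -0.64 ± 0.20 and ENSMUST00000050073 under the level for a test.

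Dnajc19, the J-domain protein that stimulates mitochondrial import and whose loss causes a cardiomyopathy in humans, had 2.58, 1.85 and 2.21 FPKM in I/R hearts and 4.29, 3.06 and 3.29 FPKM in Sham hearts. The groups did not overlap, with 113 reads in I/R hearts and 196 in Sham hearts (-0.50 ± 0.21, unadjusted p = 0.0463, Benjamini-Hochberg adjusted p = 0.587 by limma). Without I/R replicate 2, I/R replicate 3 or any 1 Sham heart the unadjusted p by limma was 0.0567 to 0.143. The transcript ENSMUST00000117223 had 0.767, 0.597 and 0.980 FPKM in I/R hearts and 2.44, 1.65 and 1.47 FPKM in Sham hearts (-0.67 ± 0.21), whereas ENSMUST00000011029 overlapped between the groups (-0.20 ± 0.19). The lncRNA Gm43668, on the opposite strand of Dnajc19, had overlapping groups as well (-0.08 ± 0.11).

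Dnajc30, a mitochondrial J-domain protein, had 2.43, 1.42 and 1.85 FPKM in I/R hearts and 3.47, 1.94 and 3.25 FPKM in Sham hearts. I/R replicate 1 exceeded Sham replicate 2, and the change of -0.41 ± 0.25 had an interval of -1.01 to 0.19. Dnajb3, a J-domain gene with 1 exon, had 1.36, 0.642 and 0.729 FPKM in I/R hearts and 0.480, 0.0987 and 0.395 FPKM in Sham hearts. All I/R hearts were higher (0.52 ± 0.24, unadjusted p = 0.0653 by limma), but the values rest on 23 reads against 9. The gene also lies within the span of the lncRNA Gm20528 and of Ugt1a genes, whose reads cannot be told apart from its own.

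Dnajb6, whose promoter holds the element shown above and which keeps polyglutamine proteins soluble, had 0.383, 0.773 and 0.627 FPKM in I/R hearts and 0.198, 0.611 and 0.679 FPKM in Sham hearts, with overlapping groups. These values rest on only 15 reads in I/R hearts and 13 in Sham hearts. Among the remaining J-domain genes that were tested, Dnajc21, a ribosome biogenesis factor, had all I/R hearts above the Sham hearts (0.27 ± 0.17). The others overlapped, from -0.43 ± 0.32 for Dnajc8 to 0.34 ± 0.29 for Dnajc13. The 8 J-domain genes under the level for a test were Dnajb2, Dnajb7, Dnajb13, Dnajc2, Dnajc12, Dnajc14, Dnajc17 and Dnajc22.

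The cytosolic chaperonin TRiC, which folds actin and tubulin, was represented by 6 listed genes at low levels. Its sum was 17.6, 12.03 and 12.4 FPKM in I/R hearts and 14.6, 15.4 and 15.4 FPKM in Sham hearts. The highest heart and the 2 lowest hearts were all from the I/R group. Of 5 genes tested, 2 were above 0 and 3 below, with a median of -0.08. Cct5 had 4.26, 1.94 and 1.89 FPKM in I/R hearts and 3.97, 3.71 and 4.71 FPKM in Sham hearts (-0.53 ± 0.28, unadjusted p = 0.104 by limma). I/R replicate 1 lay among the Sham hearts, and without it the change was -0.81 (unadjusted p = 0.0091, Benjamini-Hochberg adjusted p = 0.362 by limma). Without any other 1 heart the change was -0.38 to -0.59, with an unadjusted p of 0.136 to 0.268 by limma. Its main transcript, ENSMUST00000022842, had a change of -0.24 ± 0.26. The transcript ENSMUST00000161266, of 845 bases, had one of -0.64 ± 0.31 from 16 reads in I/R hearts and 38 in Sham hearts. Both transcripts had overlapping groups.

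Bag2, which inhibits the ubiquitin ligase Chip on Hsp70, had 48.0, 48.4 and 47.0 FPKM in I/R hearts and 39.3, 45.05 and 40.2 FPKM in Sham hearts. All I/R hearts lay above the Sham hearts within a narrow range (0.20 ± 0.11, unadjusted p = 0.0999 by limma). The lncRNA Gm37905 overlaps Bag2 on the opposite strand. It had means of 223.7 ± 38.4 FPKM in I/R hearts and 199.99 ± 9.33 FPKM in Sham hearts (SD, n = 3 each). These FPKM are scaled to the lncRNA total, so they cannot be set beside those of Bag2. Gm37905 had 545 and 514 reads over the I/R and Sham hearts, and Bag2 had 2172 and 2073. Reads of the pair cannot be told apart. Bag4 and Bag5, the other BAG genes listed, had changes of 0.01 ± 0.15 and -0.03 ± 0.23.

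Fkbp9 had 141.8, 142.1 and 140.6 FPKM in I/R hearts and 123.8, 133.5 and 140.4 FPKM in Sham hearts. The I/R hearts lay above the Sham hearts, the nearest pair of hearts differing by little (0.10 ± 0.09). The other 5 FKBP genes tested had overlapping groups, among them Fkbp4, an Hsp90 cochaperone of steroid receptors, at -0.38 ± 0.32 and Fkbp1b, the calstabin of the cardiac ryanodine receptor, at 0.06 ± 0.39. Hspbp1, an exchange factor of Hsp70, had 5.58, 7.99 and 1.67 FPKM in I/R hearts and 4.08, 4.41 and 1.36 FPKM in Sham hearts. Replicate 3 was the lowest heart of both groups for this gene, with 4 reads in the I/R heart and 3 in the Sham heart. The change was 0.43 ± 0.52, from 42 and 29 reads over the I/R and Sham hearts.

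Over the 56 transcripts tested, 2 were higher and 3 lower at an unadjusted p under 0.05 by limma, against 3.68% and 2.16% of 5890 protein-coding transcripts. They belonged to Hspb8, Dnajb9, Dnajb4, Dnajc19 and Hspa12b. In 9 of the 56 transcripts all I/R hearts lay above the Sham hearts and in 3 all lay below, against 8.56% and 5.5% of protein-coding transcripts. Of the 56 transcripts 32 had a change above 0, against 54.2% of protein-coding transcripts. None passed adjustment by limma. Of the 49 tested genes 14 overlapped another gene of the table, 13 of them on the opposite strand and 8 of them with an lncRNA.

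Genes of the same pathways that the naming rule leaves out were read from lists. Among chaperones of the endoplasmic reticulum 12 of 19 genes were tested, 9 above and 3 below 0, with a median of 0.18. Hsp90b1, the Hsp90 of the endoplasmic reticulum, had 4.93, 5.13 and 4.93 FPKM in I/R hearts and 3.47, 3.82 and 3.23 FPKM in Sham hearts. Its groups did not overlap (0.41 ± 0.17, unadjusted p = 0.0442, Benjamini-Hochberg adjusted p = 0.583 by limma), and it was the only gene of the list under 0.05 unadjusted. Pdia3, a disulfide isomerase for glycoproteins, had all I/R hearts above the Sham hearts (0.32 ± 0.15), and Creld2, a stress target of the same compartment, had overlapping groups (0.37 ± 0.23).

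The lists of further cochaperones, mitochondrial chaperones, TRiC partners and heat shock factors had 0 genes under an unadjusted p of 0.05 by limma. Hsp70 and Hsp90 cochaperones outside the rule had 12 genes tested and a median of 0.01. Ubqln2, a ubiquilin that shuttles clients to the proteasome, had means of 41.1 ± 0.992 FPKM in I/R hearts and 36.0 ± 0.57 FPKM in Sham hearts (SD, n = 3 each) with groups that did not overlap, and St13, the Hsp70-interacting protein Hip, also had all I/R hearts above (0.11 ± 0.11). Cdc37l1, a relative of the kinase cochaperone Cdc37, had a change of -0.26 ± 0.19. Mitochondrial chaperones and proteases had 9 genes tested and a median of 0.08, and of these the protease subunit Clpp had all I/R hearts above the Sham hearts (0.15 ± 0.09), while Lonp1 and the prohibitin Phb overlapped.

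Partners of TRiC, namely prefoldin, phosducin-like and tubulin cofactor genes, had 7 genes tested, 2 above and 5 below 0, with a median of -0.21. The smallest unadjusted p belonged to Txndc9, a phosducin-like partner (-0.35 ± 0.22), Pfdn4, a prefoldin subunit (-0.43 ± 0.27), and Tbcd, a tubulin cofactor (-0.68 ± 0.45), all with overlapping groups. Of the heat shock factors and their regulators only Hsbp1, a binding protein of heat shock factor, and its relative Hsbp1l1 were tested, with changes of -0.23 ± 0.30 and -0.34 ± 0.25 and overlapping groups. Hsf2 was listed below the level for a test, and Hsf1 was not analysed here.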

How the data were processed

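Values were FPKM per transcript for 6 heart libraries, computed and deposited by the authors. Per the labels' protocols, NEBNext kits were used to select poly(A) RNA and to build the libraries. Tools in the submitters' processing notes are HTSeq 0.10.0, HISAT2 2.1.0, fastp 0.23.0 and bcl2fastq 2.19.1.403, and the builds there are mm10, GRCm38 and GRCm39, without roles. Neither the strand setting nor the annotation is given in the sources used here. Of the 66 genes, 62 overlapped the RefSeq GRCm38.p6 span of the same gene by at least 50%, and coordinates are given in that build.

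Of 21198 rows, 40 repeated a transcript and were dropped. FPKM were summed per gene name. Reads were recovered because FPKM are whole multiples of 1 read over length and total: 11744 of 11745 mRNA rows came out whole within 0.001. The smallest length that gave whole reads was kept, so lengths and read numbers are the least that fit. All 12114 genes that averaged 0.5 FPKM or more were fitted as log2(FPKM + 1), with a pseudocount of 1, by limma 3.58.1 in R 4.3.3, with group as the only factor, a variance trend and two-sided tests with Benjamini-Hochberg adjustment, and with 95% intervals. The fit was tested on simulated data. Figures used Python 3.11.15 and matplotlib 3.10.9.

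The genes, lists, tests and the rule for values per heart were chosen with earlier results of these data known. Values per heart are given for genes with at least 20 FPKM, for 8 preset genes where listed (Hspa1b, Hspa1a, Hsph1, Dnajb1, Hsp90aa1, Hspa5, Hspb1 and Cryab) and for the 5 genes per direction with the smallest unadjusted p. Up to 3 genes with the smallest unadjusted p are named per pathway list. The pathway list on proteotoxic stress partners is not reported here. Genes named beyond this (such as Hspa8, Hspd1, Hspa4l and the overlapping genes) were chosen after their values were seen. Whether replicate numbers pair the hearts is not given in the labels. Same-numbered hearts deviated from their group means with correlations of 0.15, 0.03 and 0.03 across genes. Hearts of different numbers gave -0.14 to 0.11, and these values cannot decide the question with so few hearts. The alternatives were another pseudocount (0.1), other filters, scalings and variance models, 1 transcript per gene, limma voom on recovered reads, a replicate block and each heart left out.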

Additional observations from a re-analysis of the deposited data

How the results depend on the processing

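No setting called any of the 49 genes at an adjusted p under 0.05, and the smallest adjusted p of limma in any setting was 0.317. At an unadjusted p under 0.05, where 1 gene was higher and 3 lower, the count of higher genes was 2 with no filter, 2 with quantile normalization, 2 with no variance trend (Dnajb3 and Hsp90aa1, while Hspb8 had an unadjusted p of 0.0754 by limma), 6 when protein-coding genes alone were fitted and 4 with limma voom. The count of lower genes was 1 with a mean of at least 2 FPKM. Dnajb4 was then not tested, and Dnajc19 had an unadjusted p of 0.0564 by limma. The count was also 1 with the most abundant transcript per gene and 1 with the replicate block. Whether the replicate numbers pair the hearts is not known. With the most abundant transcript, 1 gene had all I/R hearts below the Sham hearts, and Hspa12b and Dnajc19 each had a change of -0.20. Shares of all genes were counted only for the main fit, so the counts of the other settings cannot be read against a share. The TRiC median was -0.28 with a mean of at least 2 FPKM. Signs turned for Dnajc10 (0.00076) and Hspa9 (-0.0026) with quantile normalization, for Bag5 (0.018) and Chordc1 (0.086) with the most abundant transcript, and for Chordc1 (0.069) with limma voom. With each heart left out in turn, the count of higher genes at an unadjusted p under 0.05 was 0 to 2 (0 without I/R replicate 1, I/R replicate 2 or Sham replicate 3, and 2 without Sham replicate 1) and that of lower genes 1 to 4 (1 without I/R replicate 2, I/R replicate 3 or Sham replicate 2). Genes with all I/R hearts above the Sham hearts then numbered 10 to 14 (14 without I/R replicate 2) and those with all below 3 to 7 (7 without I/R replicate 1, 6 without Sham replicate 1 or 2, and 5 without I/R replicate 3), where fewer hearts make separation more frequent. The share of all genes was not counted with a heart left out, so these counts cannot be read against it. With a heart left out, the median over the genes was -0.028 to 0.058, and that of the Hsp70 family 0.055 to 0.26. Family medians whose sign turned ran from -0.061 to 0.073 for the J-domain proteins, -0.25 to 0.020 for TRiC, -0.0020 to 0.084 for BAG and -0.16 to 0.052 for FKBP, while the small heat shock proteins (0.21 to 0.33) and the other cochaperones (0.044 to 0.33) kept theirs. Changes whose sign turned without a heart ran from -0.039 to 0.0697 for Bag4, -0.19 to 0.084 for Bag5, -0.25 to 0.085 for Cct4, -0.082 to 0.17 for Cct7, -0.21 to 0.065 for Chordc1, -0.0802 to 0.37 for Dnaja1, -0.058 to 0.098 for Dnajb11, -0.084 to 0.38 for Dnajb12, -0.36 to 0.073 for Dnajb14, -0.052 to 0.20 for Dnajb6, -0.0082 to 0.17 for the Dnajb9 transcript ENSMUST00000015049, -0.065 to 0.054 for Dnajc10, -0.61 to 0.16 for Dnajc11, -0.39 to 0.22 for Dnajc7, -0.25 to 0.38 for Fkbp1b, -0.21 to 0.094 for Fkbp8, -0.13 to 0.026 for Fkbpl, -0.041 to 0.24 for Hsp90ab1, -0.0081 to 0.29 for Hspa4l, -0.18 to 0.11 for Hspa5 and -0.017 to 0.055 for Hspa9. The sign of 29 of the 49 genes held in every setting that was run. The causes of these shifts were not tested. Low read numbers limit the genes under 0.5 FPKM, for which no test was made. They also limit tested genes of low FPKM, such as Dnajc8 with 10 reads in I/R hearts and 19 in Sham hearts.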
